A study of Mus musculus with 11 samples.

Results

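Chromatin around 5 genes for partners and paralogs of c-Fos was read from ATAC-seq peak lists of mouse dentate gyrus: Jun, Junb and Jund, which encode Jun proteins, and Fosb and Fosl2, which encode Fos proteins. The members were the peaks within 50 kb of each gene's transcription start, at mm9 positions given to the nearest kilobase, which gave 325 of the 497658 peaks on chromosomes 1 to 19 and X. Overlapping peaks of the 11 libraries (1 bp or more) were joined into regions, of which 57 out of 128823 lay in the 5 loci. In ATAC-seq a transposase cuts and tags accessible DNA, so that peaks mark open chromatin.

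There were 2 libraries of shRNA-cFos E1 and 3 each of the other groups, which were shRNA-Ctrl E1, then shRNA-cFos E0 and lastly shRNA-Ctrl E0. All mice were C57BL/6, 8 weeks old, and carried an adeno-associated virus with an shRNA, against c-Fos in shRNA-cFos and a control in shRNA-Ctrl. Each library came from 1 mouse. The series concerns neuronal activation; the labels do not spell out E0 and E1, and the deposited E0 lists are named as sham. Neither the share of cells that carried the virus nor the loss of c-Fos is shown by peak lists, and the labelled tissue was not checked against marker genes here. In a bulk library a region open in fewer cells and a region less open per cell cannot be told apart.

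AP-1 is a dimer held together by leucine zippers, in which a Jun protein pairs with another Jun protein or with a Fos protein, and it binds a short palindromic DNA site. Fos proteins need a Jun partner to bind DNA stably. In neurons, Fosb, Jun and Junb are immediate early genes that respond to activity within minutes, while Jund is expressed more steadily, and Fosb also gives the truncated, long-lived DeltaFosB. Fosl2, also called Fra-2, is a Fos-related gene.

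The lists differed in length, from 25145 to 78349 peaks on these chromosomes, and depth per library is unknown. A longer list holds weaker peaks, so values are given as deposited and with every list cut to its 25145 highest-scoring peaks, called equal list length below. That cut kept 219 of the 325 peaks of the 5 loci (67.4%), against 55.6% of all peaks. The 3 longest lists were those of shRNA-Ctrl E1 replicates 1 and 3 and shRNA-cFos E0 replicate 2. Lists held 35474 to 78349 peaks at E1, against 25145 to 74432 at E0, so list length moved with state. It also differed between shRNA groups within a state. At E0 the lists held 25145, 28391 and 29519 peaks with shRNA-Ctrl, against 33134, 74432 and 28417 with shRNA-cFos. At E1 they held 78349, 35474 and 75908 with shRNA-Ctrl, against 48262 and 40627 with shRNA-cFos. The values at equal list length stand beside those as deposited.

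All 5 genes had a peak within 1 kb of the start in all 11 libraries as deposited. With lists of equal length this held for 4 genes in 11 of 11 libraries and for Junb in 10 of 11, shRNA-cFos E0 replicate 2 being the exception. Promoters therefore recurred in every group, and libraries differed in the extent of these peaks, in their rank within the list and in the peaks farther away. The rank is given as score percentile, the share of a list's peaks with a lower score, where the score is the authors' own value per peak. Of the 57 regions in the 5 loci, 11 (19.3%) were called in all 11 libraries, where the share over all merged regions was 9.16%. At equal list length it was 9 of 35 regions (25.7%), against 16.4% of all regions. These shares are over regions of any kind. The share of all promoters with a recurrent peak was not computed, since mm9 positions of other genes were not at hand.

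**Figure D1:**
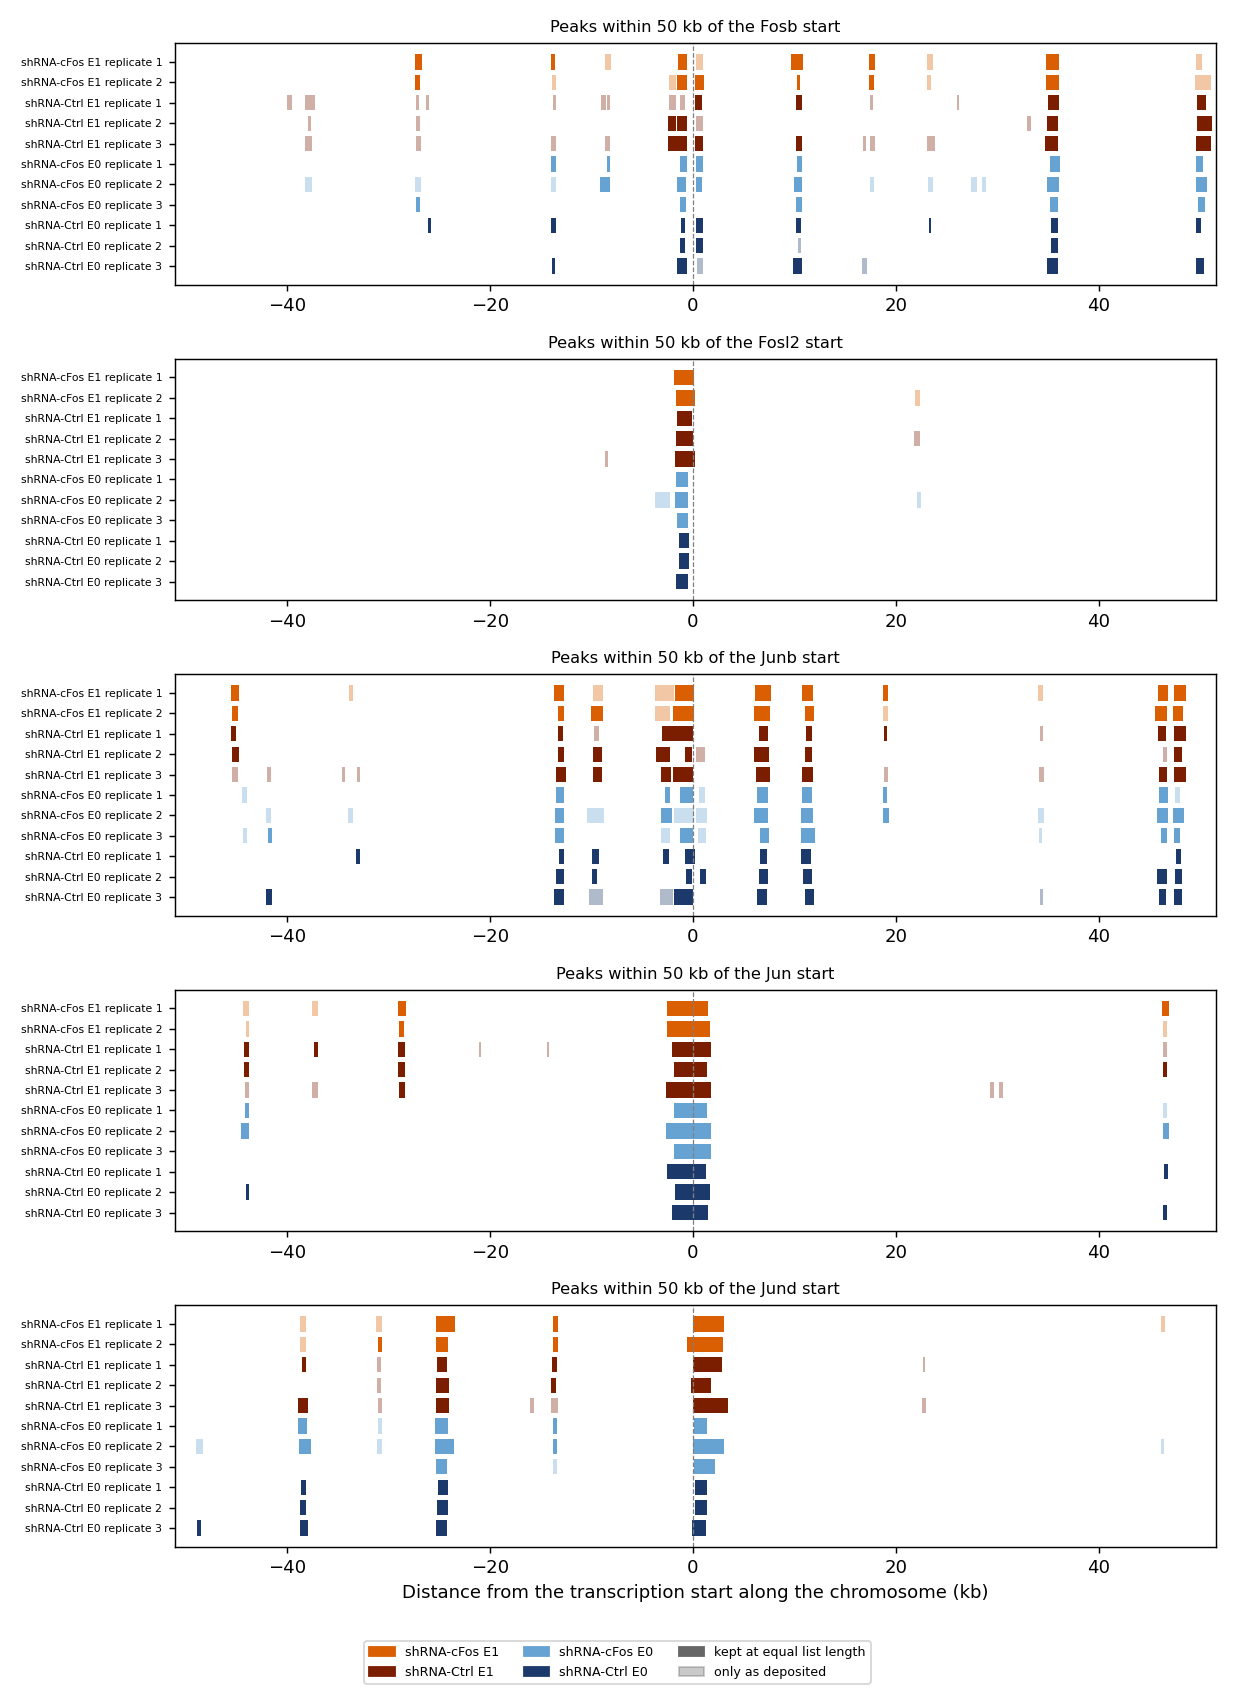
Peaks within 50 kb of the start of each gene (panels), by library (rows), with distance in kb along the chromosome on the x axis (negative towards lower coordinates), bars drawn to scale and the dashed line at the start. Pale bars are peaks lost when lists are cut to 25145 peaks. Jun has 1 wide promoter peak in every library and a narrow peak at -28.7 kb in the 5 E1 libraries alone; Fosl2 has little beside its promoter.

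The Jun promoter was the widest and highest ranked, and the Junb promoter was missing from 1 list at equal length. The Fosl2 promoter was the only one whose covered length separated the states both as deposited and at equal list length. The sequences just before the starts of Jun, Junb and Fosl2 are therefore shown. They are the 250 bases upstream of the start from RefSeq, build GRCm38.p6, 5′ to 3′ on the gene's strand, so they carry coordinates of that build and cannot be placed to the base within the mm9 peaks. All 5 genes matched the RefSeq table. Capitals mark TGACATCA.
Jun, chr4:95052223-95052472, minus strand: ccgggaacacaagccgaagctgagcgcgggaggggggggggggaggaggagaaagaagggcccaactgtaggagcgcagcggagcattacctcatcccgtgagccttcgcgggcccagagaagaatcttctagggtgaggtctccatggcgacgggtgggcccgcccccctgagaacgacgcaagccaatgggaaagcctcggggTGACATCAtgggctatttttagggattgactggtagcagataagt
Junb, chr8:84978749-84978998, minus strand: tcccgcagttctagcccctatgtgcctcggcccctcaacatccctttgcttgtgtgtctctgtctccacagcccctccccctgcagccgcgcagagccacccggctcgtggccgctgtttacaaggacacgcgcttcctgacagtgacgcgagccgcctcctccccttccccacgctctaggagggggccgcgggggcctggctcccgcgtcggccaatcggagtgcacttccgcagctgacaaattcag
Fosl2, chr5:32136222-32136471, plus strand: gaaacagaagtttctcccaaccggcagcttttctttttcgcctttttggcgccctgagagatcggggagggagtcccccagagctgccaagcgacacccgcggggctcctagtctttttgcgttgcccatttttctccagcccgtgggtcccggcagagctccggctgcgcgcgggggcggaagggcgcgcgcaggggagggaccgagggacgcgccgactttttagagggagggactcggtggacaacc

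The Jun window held TGACATCA, a variant of the cyclic AMP response element, beginning 45 bases before the start. This pattern was chosen after the sequence had been read. On either strand it was found in 2.93% of 32851 RefSeq promoter windows of the same length. The AP-1 site TGANTCA (6.75% of windows), the cyclic AMP response element TGACGTCA (1.55%) and the CArG box bound by serum response factor (1.47%) were searched on both strands. None of these letters occurred in the 250 bases before any of the 5 starts, which covers that window only. The bases G and C made up 61.2% of the Jun window, 66.4% of the Junb window and 64.4% of the Fosl2 window, against 68.8% for Fosb and 47.6% for Jund.

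Jun encodes c-Jun, the first Jun protein described and a partner of every Fos protein. As deposited the 5 E1 libraries each had more peaks at this locus than any E0 library, a difference that did not pass the adjustment. In that setting there were 5 and 4 peaks in the shRNA-cFos E1 libraries and 7, 4 and 6 in the shRNA-Ctrl E1 libraries, against 3, 3 and 1 in the shRNA-cFos E0 libraries and 2, 2 and 2 in the shRNA-Ctrl E0 libraries. Every E1 library lay above every E0 library, which held for 0.568% of 23259 windows of 100 kb tiled over the genome. The mean difference, E1 minus E0 within shRNA groups, was 2.92 peaks, where the median over all windows was 0.5 (two-sided exact permutation p = 0.005, the smallest 200 labellings allow; adjusted p = 0.495 by Benjamini-Hochberg over 23264 windows and loci). An unadjusted permutation p under 0.05 in this direction was reached by 7.24% of windows. No window passed the adjustment, since the smallest adjusted p was 0.495.

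The Jun locus at equal list length had 3 and 2 peaks in shRNA-cFos E1 and 4, 4 and 2 in shRNA-Ctrl E1, against 2, 3 and 1 in shRNA-cFos E0 and 2, 2 and 2 in shRNA-Ctrl E0. The groups then overlapped, and the difference of 0.917 peaks did not pass (exact permutation p = 0.14, adjusted p = 0.779). In this setting 4.82% of windows had an unadjusted permutation p under 0.05 for more peaks at E1.

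A region 28.7 kb from the Jun start, chr4:94689957-94690741 in mm9, 785 bp wide, had a peak in each of the 5 E1 libraries, against 0 of the 6 E0 libraries. Its peak stood at score percentiles of 71.2 and 55.2 in the shRNA-cFos E1 lists, and of 82.1, 76.3 and 84.9 in the shRNA-Ctrl E1 lists. The pattern was the same at equal list length, with percentiles of 44.7 and 27.6 in shRNA-cFos E1 and 44.4, 66.6 and 54.4 in shRNA-Ctrl E1. The percentiles of the 5 E1 peaks thus ran from 55.2 to 84.9 as deposited and from 27.6 to 66.6 at equal list length. The longest E0 list, that of shRNA-cFos E0 replicate 2 with 74432 peaks, held no peak there. Whether list length or the caller's threshold plays a part was not tested.

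That pattern was shown by 1104 of all 128823 regions (0.857%) as deposited and by 571 of 59298 (0.963%) at equal list length. The test of this call gave an exact permutation p of 0.005, the smallest allowed, and an adjusted p of 0.57 over all regions, or 0.468 at equal list length. In the direction of E1, 3.48% of regions had an unadjusted permutation p under 0.05 as deposited and 3.09% at equal list length. Distances here are along the chromosome, and RefSeq places Jun, Junb and Fosb on the minus strand, so negative distances lie downstream of these 3 starts. The nearest protein-coding neighbour on that side is Mysm1 in the GRCm38.p6 gene order.

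Other regions of the Jun locus were less regular. The region at -37.2 kb was called in 1 of 2 shRNA-cFos E1 and 2 of 3 shRNA-Ctrl E1 libraries, against no E0 library. The region at -44.1 kb was called in 2 of 2 shRNA-cFos E1 and 3 of 3 shRNA-Ctrl E1 libraries, against 2 of 3 shRNA-cFos E0 and 1 of 3 shRNA-Ctrl E0 libraries. At 46.6 kb a region was called in 8 libraries spread over all groups. The remaining 4 distal regions were called in 1 shRNA-Ctrl E1 library each, and 3 of them held scores under 100.

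The Jun promoter itself was open at both states. Its single peak covered 4060 and 4295 bp in shRNA-cFos E1 and 3788, 3267 and 4366 bp in shRNA-Ctrl E1. The E0 libraries gave 3273, 4473 and 3641 bp with shRNA-cFos and 3842, 3493 and 3510 bp with shRNA-Ctrl. The groups overlapped, with a difference of 287 bp, E1 minus E0 (exact permutation p = 0.295, adjusted p = 0.70 over 11796 regions called in all libraries). Its score percentile lay between 94.1 and 98.1 in every list, and was the highest of the 5 promoters in each of the 11 lists as deposited.

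**Figure D2:**
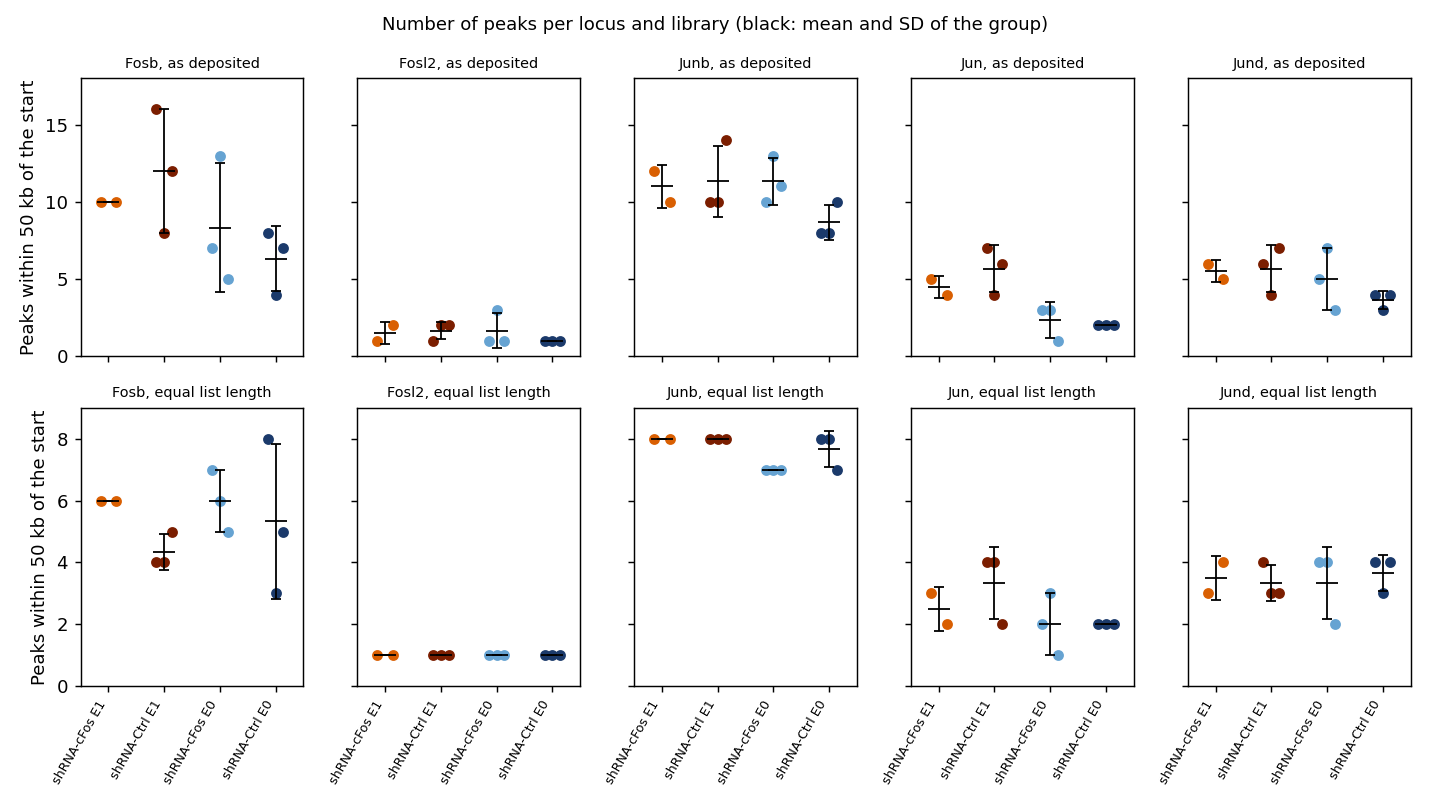
Number of peaks within 50 kb of each start (y axis), 1 point per library, by group (x axis), with the mean and SD of the group in black. The upper row has the lists as deposited, where the E1 points of Jun (4 to 7) lie above its E0 points (1 to 3), and the lower row has lists of equal length, where they overlap.

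Junb encodes JunB, a Jun protein that activates fewer targets alone than c-Jun and can oppose it. Its locus held the most peaks of the 5, with 116 as deposited and 84 at equal list length. As deposited there were 12 and 10 peaks in shRNA-cFos E1 and 10, 10 and 14 in shRNA-Ctrl E1, against 10, 13 and 11 in shRNA-cFos E0 and 8, 8 and 10 in shRNA-Ctrl E0. States overlapped, and the difference of 1.17 peaks did not pass (exact permutation p = 0.33, adjusted p = 0.824). All 5 E1 libraries had 8 peaks at equal list length. The E0 libraries then had 7, 7 and 7 with shRNA-cFos and 8, 8 and 7 with shRNA-Ctrl, a difference of 0.667 (exact permutation p = 0.05, adjusted p = 0.586).

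The Junb locus held the other region called in all 5 E1 and no E0 libraries, at -45.1 kb, chr8:87457527-87458277, 751 bp wide. Its score percentiles were 77.4 and 42.7 in shRNA-cFos E1 and 68.0, 60.6 and 64.0 in shRNA-Ctrl E1. The cut to equal length removed the peak of shRNA-Ctrl E1 replicate 3, which left 4 of 5 E1 libraries against 0 of 6 E0 libraries (exact permutation p = 0.02, adjusted p = 0.526). A separate region at -44.1 kb, which did not touch it, was called in 0 of the 5 E1 libraries, against 2 of 3 shRNA-cFos E0 and 0 of 3 shRNA-Ctrl E0 libraries. The region at -45.1 kb lies on the side of Prdx2 and Rnaseh2a in the RefSeq gene order, and Hook2 and Best2 follow on the other side of Junb.

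The rank of the Junb promoter did not separate the states once lists were of equal length. The percentile of its best peak within 1 kb was then 57.2 and 79.5 in shRNA-cFos E1 and 66.9, 71.2 and 48.8 in shRNA-Ctrl E1. In E0 it was 56.4 and 67.4 with shRNA-cFos, where replicate 2 had no such peak and was set at 0, and 70.1, 65.5 and 55.3 with shRNA-Ctrl. The difference was 12.9 percentage points (exact permutation p = 0.525, adjusted p = 0.813 over 9721 promoters and regions called in all libraries, of which 5.67% had an unadjusted permutation p under 0.05 for a higher and 9.2% for a lower percentile at E1). As deposited the values were 77.7 and 87.3 in shRNA-cFos E1 and 89.4, 79.6 and 83.1 in shRNA-Ctrl E1, against 66.9, 56.6 and 71.1 in shRNA-cFos E0 and 70.1, 69.4 and 61.9 in shRNA-Ctrl E0. These did not overlap (difference 17.2, exact permutation p = 0.005, adjusted p = 0.328), but ranks from lists of different lengths cannot be compared, and 12.8% of 11801 promoters and regions had an unadjusted permutation p under 0.05 in this direction.

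The length covered by peaks was summed over the Junb locus at equal list length. It was 8907 and 9315 bp in shRNA-cFos E1 and 7851, 7055 and 9185 bp in shRNA-Ctrl E1, against 6102, 7243 and 5940 bp in shRNA-cFos E0 and 5241, 6124 and 6846 bp in shRNA-Ctrl E0. The lowest E1 library, shRNA-Ctrl E1 replicate 2, lay below the highest E0 library, shRNA-cFos E0 replicate 2, and the other 4 E1 libraries lay above all 6. The difference was 2320 bp (exact permutation p = 0.005, the smallest allowed, and adjusted p = 0.148). No window had a smaller adjusted p, but all windows at the smallest permutation p share this value, the Fosl2 locus among them. An unadjusted permutation p under 0.05 for more covered length at E1 was found for 11.9% of windows. This combination of measure and list length was chosen after the data had been seen. As deposited the states overlapped more, from 8234 to 12625 bp at E1 against 5241 to 13428 bp at E0, and the difference was 2290 bp (exact permutation p = 0.145). The region over the Junb promoter, -3.6 to 0.2 kb, was measured at equal list length. It covered 1922 and 2089 bp in shRNA-cFos E1 and 3013, 2059 and 2925 bp in shRNA-Ctrl E1. In E0 it covered 1831, 1045 and 1250 bp with shRNA-cFos and 1614, 642 and 1874 bp with shRNA-Ctrl. Every E1 library lay above every E0 library, as in 1.16% of regions called in all libraries. The difference was 960 bp (exact permutation p = 0.015, adjusted p = 0.326). As deposited the states overlapped.

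Beside the promoter, 4 regions of the Junb locus were called in all 11 libraries as deposited, at -13.1, 6.9, 11.4 and 47.9 kb. The highest ranked of these lay at 6.9 kb, chr8:87509034-87510679, with a mean percentile of 73.4. A weak region at 0.9 kb was called in 0 of 2 shRNA-cFos E1 libraries, against 3 of 3 shRNA-cFos E0 libraries, a pattern found in 0.548% of all regions. It was also called in 1 shRNA-Ctrl E1 and 1 shRNA-Ctrl E0 library. Its 3 peaks in shRNA-cFos E0 had percentiles between 7.58 and 17.5, and at equal list length it was called in 1 library.

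Jund encodes JunD, the Jun protein with the steadiest expression in most tissues. As deposited there were 6 and 5 peaks in shRNA-cFos E1 and 6, 4 and 7 in shRNA-Ctrl E1, against 5, 7 and 3 in shRNA-cFos E0 and 4, 3 and 4 in shRNA-Ctrl E0. The difference of 1.25 peaks did not pass (exact permutation p = 0.195, adjusted p = 0.719). With equal lists it was -0.0833 (exact permutation p = 0.985), with 2 to 4 peaks in every library.

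The promoter region of Jund began near the given start and reached over the gene on the plus strand. It covered 2993 and 3623 bp in shRNA-cFos E1 and 2763, 1950 and 3427 bp in shRNA-Ctrl E1, against 1301, 3138 and 2079 bp in shRNA-cFos E0 and 1216, 1183 and 1419 bp in shRNA-Ctrl E0. Within shRNA-Ctrl the 3 E1 libraries lay above the 3 E0 libraries, while in shRNA-cFos the states overlapped. Over all libraries the difference was 1290 bp (exact permutation p = 0.02, adjusted p = 0.326). Covered length was examined after the peak edges had been seen, and 11.2% of the regions called in all libraries had an unadjusted permutation p under 0.05 for a longer covered length at E1.

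A region at -13.6 kb from the Jund start, chr8:73208057-73208759, was called in every library but those of shRNA-Ctrl E0. Its percentiles were 64.4 and 65.3 in shRNA-cFos E1, 74.0, 73.2 and 65.6 in shRNA-Ctrl E1, and 30.2, 78.4 and 7.32 in shRNA-cFos E0. At equal list length it was called in 2 of 2 shRNA-cFos E1, 2 of 3 shRNA-Ctrl E1 and 2 of 3 shRNA-cFos E0 libraries, against 0 of 3 shRNA-Ctrl E0 libraries. As deposited it was 1 of the 6 regions of the 5 loci found in all shRNA-Ctrl E1 and no shRNA-Ctrl E0 libraries. It was also the only one found in all shRNA-cFos E0 and no shRNA-Ctrl E0 libraries, where the share over all regions was 1.11%. The region at -30.9 kb, chr8:73190840-73191433, was called in 2 of 2 shRNA-cFos E1, 3 of 3 shRNA-Ctrl E1 and 2 of 3 shRNA-cFos E0 libraries, against 0 of 3 shRNA-Ctrl E0 libraries. After the cut 1 of its peaks was left, in shRNA-cFos E1.

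The Jund locus also held the highest-ranked region outside a promoter, at -24.4 kb, chr8:73196605-73198614, on the side of Lsm4. Its percentiles were 94.8 and 98.8 in shRNA-cFos E1, 99.3, 98.1 and 98.7 in shRNA-Ctrl E1, and 96.7, 98.5 and 95.9 in shRNA-cFos E0, against 88.5, 89.6 and 87.6 in shRNA-Ctrl E0. At equal list length the other 8 lists had 90.1 to 98.1, against 88.5, 88.3 and 85.4 in shRNA-Ctrl E0. The shRNA-Ctrl E0 libraries were thus lowest in both settings, an order shown by 6.8% of regions called in all libraries as deposited and by 1.26% at equal list length. It was noticed in the values and was not tested. The region covered 1928 and 1210 bp in shRNA-cFos E1 and 1225, 1888 and 1111 bp in shRNA-cFos E0, against 1008, 1196 and 1222 bp in shRNA-Ctrl E1 and 980, 1096 and 1053 bp in shRNA-Ctrl E0. The shRNA groups overlapped at E1, while at E0 each shRNA-cFos library lay above each shRNA-Ctrl library. The difference, shRNA-cFos minus shRNA-Ctrl, was 396 bp (exact permutation p = 0.015, adjusted p = 0.302). An unadjusted permutation p under 0.05 for a longer covered length with shRNA-cFos was found for 13.3% of regions called in all libraries.

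Fosb encodes FosB and its truncated form. As deposited there were 10 and 10 peaks in shRNA-cFos E1 and 16, 8 and 12 in shRNA-Ctrl E1, against 7, 13 and 5 in shRNA-cFos E0 and 8, 4 and 7 in shRNA-Ctrl E0. The highest E0 value, 13, belonged to the longest E0 list, and the states overlapped (difference 3.67, exact permutation p = 0.115, adjusted p = 0.648). After the cut there were 6 and 6 peaks in shRNA-cFos E1 and 4, 4 and 5 in shRNA-Ctrl E1, against 7, 6 and 5 in shRNA-cFos E0 and 8, 3 and 5 in shRNA-Ctrl E0. The difference was then -0.5 (exact permutation p = 0.65).

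The Fosb start lay between a pair of peaks. One region, from -2.4 to -0.6 kb, was called in all 11 libraries, and the other, from 0.2 to 1.1 kb, in 10. The first covered 896 and 1670 bp in shRNA-cFos E1 and 1096, 1726 and 1791 bp in shRNA-Ctrl E1. In E0 libraries it covered 668, 931 and 546 bp with shRNA-cFos and 488, 474 and 888 bp with shRNA-Ctrl. The states overlapped in 1 library each, and the difference was 744 bp (exact permutation p = 0.01, adjusted p = 0.291). At equal list length the region was called in 10 libraries. It then covered 896 and 973 bp in shRNA-cFos E1 and 0, 1726 and 1791 bp in shRNA-Ctrl E1, while the E0 values were as before. The difference was then 388 bp (exact permutation p = 0.255, adjusted p = 0.677 over the 11796 regions called in all deposited lists), so its size depended on list length. At equal list length the percentile of the best promoter peak differed by -4.72 points, E1 minus E0 (exact permutation p = 0.685).

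Outside the promoter, the highest-ranked Fosb region lay at 35.4 kb, chr7:19929718-19931145, on the side of Ercc1, and was called in all 11 libraries with a mean percentile of 75.7. Regions at -27.0 and -37.9 kb, on the side of Rtn2, were called in all 3 shRNA-Ctrl E1 and no shRNA-Ctrl E0 library. The first was also called in 2 of 2 shRNA-cFos E1 and 2 of 3 shRNA-cFos E0 libraries. The second was called in neither shRNA-cFos E1 library and in 1 shRNA-cFos E0 library, and was the only region of the 5 loci found in all shRNA-Ctrl E1 and no shRNA-cFos E1 libraries, where the share over all regions was 1.59%. Neither kept its pattern at equal list length. The region at 17.6 kb was then found in 2 of 2 shRNA-cFos E1 libraries and in no other library. As deposited it was also called in 2 of 3 shRNA-Ctrl E1 and 1 of 3 shRNA-cFos E0 libraries. Presence in all shRNA-cFos E1 and no shRNA-Ctrl E1 libraries, which the regions at -27.0 and 17.6 kb showed only at equal list length, was then seen for 1.7% of all regions. The region at 50.3 kb, at the edge of the locus, was called in 10 libraries as deposited, all 5 E1 libraries among them. At equal list length 0 of 2 shRNA-cFos E1 and 3 of 3 shRNA-Ctrl E1 libraries held it, against 3 of 3 shRNA-cFos E0 and 2 of 3 shRNA-Ctrl E0 libraries. The lowest score kept by the cut was 103.38 and 84.53 in shRNA-cFos E1, and 164.01, 69.47 and 174.94 in shRNA-Ctrl E1. Over all regions at equal list length, 1.08% were found in all shRNA-Ctrl E1 and no shRNA-cFos E1 libraries, and 1.54% in all shRNA-cFos E0 and no shRNA-cFos E1 libraries.

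Fosl2 had the barest surroundings. Its locus held 4 regions, of which 1, the promoter, remained at equal list length, with exactly 1 peak in every library. Of the other 3, the region at 22.1 kb was called in 3 libraries and had the highest mean percentile, 16.5. In the RefSeq gene order Babam2 and Plb1 are the nearest protein-coding neighbours.

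The Fosl2 promoter peak covered more bases in each E1 library than in any E0 library, a difference that did not pass the adjustment. It covered 1971 and 1909 bp in shRNA-cFos E1 and 1440, 1691 and 1915 bp in shRNA-Ctrl E1, against 1251, 1269 and 1042 bp in shRNA-cFos E0 and 945, 956 and 1152 bp in shRNA-Ctrl E0. Every E1 library lay above every E0 library, as in 1.32% of regions called in all libraries. The same peaks remained at equal list length, where the share was 1.16%. The mean difference was 708 bp (exact permutation p = 0.005, adjusted p = 0.282, and 0.298 at equal list length). The peak ended between -0.07 and 0.22 kb from the given start at E1, against -0.51 to -0.41 kb at E0, so the edge nearest the gene separated the states, while the other edge overlapped (-1.84 to -1.51 kb at E1, -1.72 to -1.36 kb at E0). Without the 3 longest lists the difference was 733 bp, with 1 library left in shRNA-Ctrl E1 (exact permutation p = 0.0417, the smallest that the 24 labellings then allow; adjusted p = 0.466).

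The score percentile of the Fosl2 promoter peak at equal list length was 83.2 and 85.7 in shRNA-cFos E1 and 62.0, 78.6 and 79.1 in shRNA-Ctrl E1, against 66.3, 69.9 and 78.9 in shRNA-cFos E0 and 71.8, 63.0 and 75.5 in shRNA-Ctrl E0. The states overlapped, with a difference of 7.93 points (exact permutation p = 0.115, adjusted p = 0.444). The Jun and Jund promoters differed by 0.867 and -6.05 points in this setting (exact permutation p = 0.965 and 0.14).

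**Figure D3:**
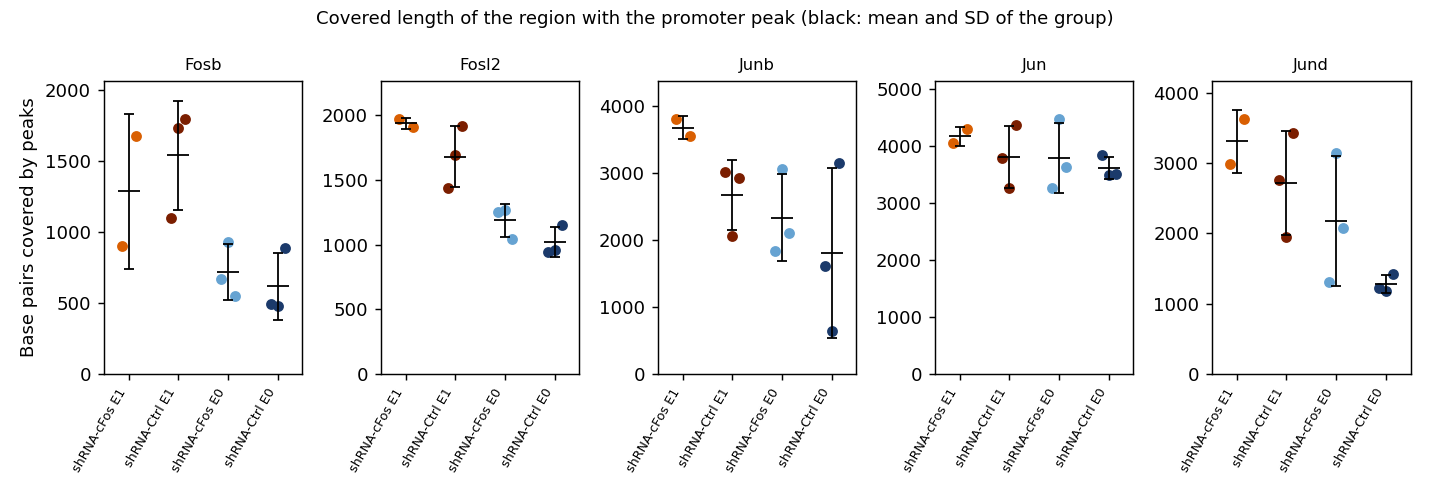
Base pairs covered by peaks in the region with the promoter peak (y axis, from 0), 1 point per library, by group (x axis), with the mean and SD of the group in black. For Fosl2 the 5 E1 libraries (1440 to 1971 bp) lie above the 6 E0 libraries (945 to 1269 bp); for Jun the groups overlap.

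Over the 5 loci together, 6 of 57 regions (10.5%) were found in all shRNA-Ctrl E1 and no shRNA-Ctrl E0 libraries as deposited, where the share over all regions was 6.04%. With equal lists it was 1 of 35 regions (2.86%), the one near Jun, against 3.51% of all regions. For shRNA-cFos the counts were 2 of 57 regions, against 1.96% of all regions, and 3 of 35, against 3.39%. No region of the loci was found only at E0 in shRNA-Ctrl, a pattern shown by 0.0442% of all regions. As deposited and without shRNA-Ctrl E1 replicate 2, the count in shRNA-Ctrl was 11 of 57 (19.3%), against 18.7% of all regions. Without shRNA-cFos E0 replicate 2, the count in shRNA-cFos was 5 of 57 (8.77%), against 5.86% of all regions. These shares rest on 1 to 11 regions and differ between the settings.

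**Figure D4:**
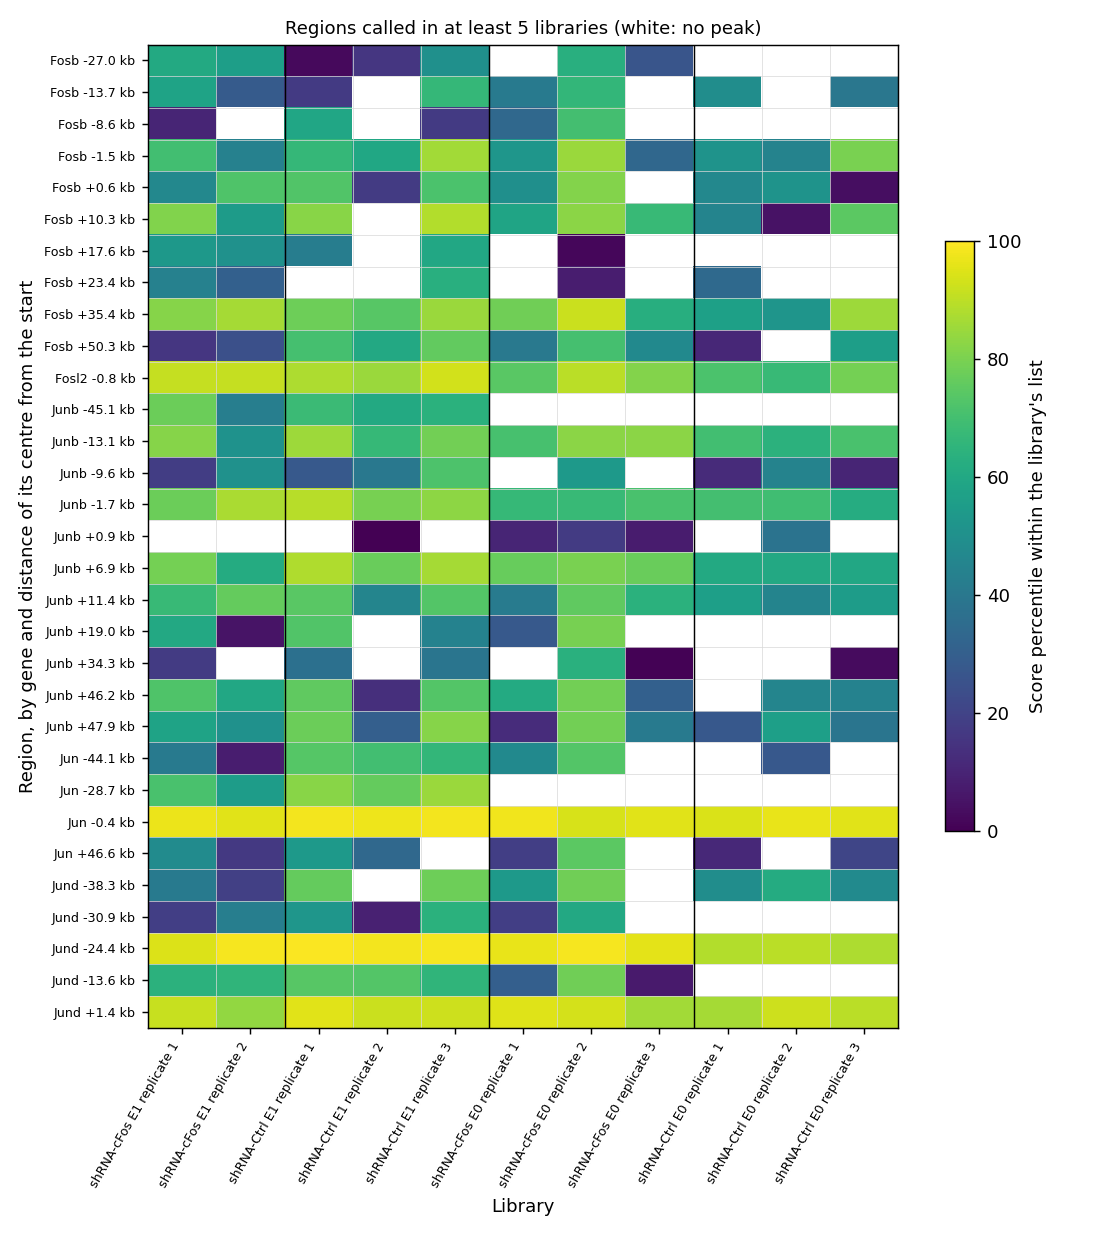
Score percentile within the list (colour) of the regions called in at least 5 libraries, by gene and distance of the region's centre from the start (rows) and library (columns); white means no peak. The rows of Jun at -28.7 kb and Junb at -45.1 kb are filled in the 5 E1 columns and white in the 6 E0 columns, and the row of Jund at -13.6 kb is white in shRNA-Ctrl E0 alone.

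The knockdown comparison asks whether the 5 loci differed between shRNAs, and no difference passed the adjustment. In number of peaks, shRNA-cFos minus shRNA-Ctrl within states, the difference was 0.583 for Jund, -0.417 for Jun, 1.17 for Junb, 0.0 for Fosb and 0.25 for Fosl2 as deposited. None passed (exact permutation p from 0.375 to 1, each adjusted p = 1). Of all windows, 0.348% had an unadjusted permutation p under 0.05 for more peaks with shRNA-cFos and 0.103% for fewer. The difference of effects, E1 minus E0 in shRNA-cFos less E1 minus E0 in shRNA-Ctrl, was -1.5 peaks for Jun, -3.0 for Junb, -1.5 for Jund, -4.0 for Fosb and -0.833 for Fosl2 (exact permutation p from 0.2 to 0.5). The median over all windows was -1.33, so a negative sign was the rule in these lists, and 3.0% of windows had an unadjusted permutation p under 0.05 for a more negative value. With equal lists the 5 values lay between -0.833 and 1.0 (exact permutation p from 0.4 to 1). Whether the loci respond alike under both shRNAs is not settled by p-values that miss the threshold.

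Ranked by mean number of peaks over the 4 groups' values at equal list length, Junb (7.0 to 8.0) and Fosb (4.33 to 6.0) held most, Jund (3.33 to 3.67) and Jun (2.0 to 3.33) overlapped, and Fosl2 had 1.0 in each group. Of the 5 promoters as deposited, that of Jun ranked highest in each of the 11 lists, with percentiles of at least 94.1. That of Jund ranged from 83.9 to 95.5 and lay below that of Fosl2 in shRNA-cFos E1 replicate 2 and shRNA-Ctrl E1 replicate 3. The Fosb promoter reached lowest, with a range from 33.4 to 86.0. The ranges of Fosl2 (67.2 to 93.1) and Junb (56.6 to 89.4) overlapped each other and those of Jund and Fosb.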

How the data were processed

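ATAC-seq peak lists of 11 libraries were used, 1 per mouse, grouped by the shRNA and state in the labels. Reads were aligned with Bowtie2 to mm9, per the submitters' processing notes; the deposited peak names carry the name of MACS, and its settings, read filters and library depths are not given in the sources used here. Each deposited list gives chromosome, start, end and a score per peak from 50.0 to 3100.0, which the authors made and whose scale is not stated, so the score served only to rank peaks within a list. Peaks were called per library, so replicates were compared as separate lists.

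The members and all lists of regions were chosen with earlier results of these data known. The 554 peaks outside chromosomes 1 to 19 and X were left out; a peak counted for a gene when it overlapped 50 kb on either side of its start, and for its promoter within 1 kb. Regions are peaks merged at an overlap of at least 1 bp. Peak counts, region calls, promoter percentiles and the covered lengths of the loci and of their promoter regions were recomputed with lists of 25145 peaks. Differences over libraries were tested by two-sided exact permutation, with Benjamini-Hochberg adjustment over all windows or regions. E0 and E1 labels were permuted within shRNA groups, or shRNA labels within states (200 labellings). The code was tested on simulated counts with the same expected list length in every library, apart from planted differences. Unequal list lengths were not simulated. Each library is a separate mouse, so p-values reflect the spread between libraries. In that spread mouse, list length and unknown depth cannot be told apart. The regions named are the promoter, the highest-ranked other region of each locus, and those found in 1 state or shRNA group alone; the remaining regions are given by position or count. Other AP-1 genes were not analysed here, since their mm9 positions were not at hand. Python 3.11.15, numpy 2.4.6, pandas 2.3.3, scipy 1.17.1 and matplotlib 3.10.9 were used.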

Additional observations from a re-analysis of the deposited data

How the results depend on the processing

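Over 659 alternative tests of 37 results the lowest adjusted p was 0.0951, so no difference passed in any of them. Signs turned under several alternatives. Per 10000 peaks of the list, the difference in peaks, E1 minus E0, was -0.0236 for Fosl2, -0.777 for Junb and -0.164 for Jund, and at equal list length it was -0.5 for Fosb and -0.0833 for Jund. For shRNA-cFos minus shRNA-Ctrl it was -0.333 for Junb and -0.0833 for Jund at equal list length, -0.167 for Jund with 25 kb on each side, and -0.333 for Fosl2, 0.583 for Jun and -0.5 for Jund with 100 kb. For Jun it was 349 covered bp, and 262 covered bp at equal list length. The difference of effects (E1 minus E0 in shRNA-cFos less E1 minus E0 in shRNA-Ctrl) was 0.755 for Fosb, 0.0421 for Fosl2, 0.745 for Junb, 0.245 for Jun and 0.464 for Jund per 10000 peaks. It was 1.0 for Fosb, 0.667 for Junb and 0.5 for Jund at equal list length, 0.333 for Fosb with 25 kb, and 517 bp for Fosb, 88.3 bp for Fosl2 and 723 bp for Junb in covered length at equal list length.

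Without the 3 longest lists, chosen after seeing the data, the difference in peaks, shRNA-cFos minus shRNA-Ctrl, was -0.25 for Fosl2 and 0.25 for Jun, and the difference of E1 effects was 2.33 for Fosb, 0.5 for Jun and 1.17 for Jund. The Jun peaks then differed by 2.25 between states (exact permutation p = 0.0417, adjusted p = 0.526), where shRNA-Ctrl E1 is 1 library and 0.0417 is the smallest p allowed. In promoter percentile, shRNA-cFos minus shRNA-Ctrl was then 2.38 for Junb and 0.0283 for Jun, and the difference of effects 1.22 for Fosl2. At equal list length the percentile differed by -4.72 for Fosb, E1 minus E0, and the difference of effects was 9.63 for Fosl2 and 2.49 for Jun. The cause was not tested.

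With each library left out in turn, signs turned in differences that did not pass. In peaks, shRNA-cFos minus shRNA-Ctrl ranged from -0.0833 to 0.5 for Fosl2. In promoter percentile the same difference ranged from -9.77 to 3.08 for Fosb, from -4.29 to 0.498 for Junb and from -3.66 to 0.135 for Jund; E1 minus E0 ranged from -1.93 to 1.87 for Jund; and the difference of effects ranged from -9.52 to 16.2 for Fosb and from -4.02 to 5.57 for Junb. Regions found at E1 alone numbered 6 to 11 in shRNA-Ctrl, with 11 without shRNA-Ctrl E1 replicate 2, and 2 to 5 in shRNA-cFos, with 5 without shRNA-cFos E0 replicate 2. Regions found at E0 alone in shRNA-cFos numbered 1 to 2, with 2 without shRNA-cFos E0 replicate 1 or 2.

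Regions of the 5 loci found at E1 alone in shRNA-Ctrl numbered 1 at equal list length; those in all E1 and no E0 libraries numbered 1 at equal list length and 1 with scores of at least 100. Those found at E0 alone in shRNA-cFos numbered 0 with scores of at least 100 and 0 with peaks within 200 bp merged. Without the 3 longest lists, 5 were found at E1 alone and 2 at E0 alone in shRNA-cFos, and 2 at E0 alone in shRNA-Ctrl.

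Same-numbered libraries did not deviate together (correlations over windows from -0.0329 to 0.0706), so the numbers were not taken as pairs. With the replicate block the smallest p allowed is 0.0625. The Jun peaks then differed by 2.58 (exact permutation p = 0.0625), the Fosl2 promoter by 672 bp, and the Fosb promoter percentile, shRNA-cFos minus shRNA-Ctrl, by 0.495, a turned sign. The smallest p allowed, 0.0625, lies above the significance threshold, so no difference could pass with the block. Whether the block changes a call can therefore not be decided. Depth is unknown, so a peak absent from a list may lie under the caller's threshold.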
